A study of Drosophila melanogaster with 2 samples.

Results

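The genes tin, bap, lbl, lbe, Doc1, Doc2, Doc3, Mef2, nau and htl were examined for regions bound by the CG7556 protein, a set of 10 among 13945 protein-coding genes. Each gene was taken by name, and its window was its annotated span with 5 kb added on either side. The study was a chromatin immunoprecipitation followed by sequencing (ChIP-seq) of whole Drosophila melanogaster embryos, males and females pooled, aged 0 to 24 h. The flies were a transgenic line that makes CG7556 with enhanced GFP at its C-terminal end, and the antibody was directed against GFP. The 2 samples were biological replicates of this 1 group. The sources used here do not name the promoter that drives the transgene, and mesoderm is 1 of many tissues in a whole embryo, so the cells in which a region was bound cannot be told apart.

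Tinman (tin), Bagpipe (bap) and the ladybird proteins (lbl, lbe) are homeodomain factors of the NK family, encoded near each other, that divide the mesoderm into heart, gut muscle and body muscle precursors. The Dorsocross proteins (Doc1, Doc2, Doc3) are T-box factors, likewise encoded near each other, that act with Tinman in forming the heart and also act in the amnioserosa. Heartless (htl) is a receptor for fibroblast growth factor through which mesoderm cells spread under the ectoderm. Mef2 turns on muscle differentiation genes, and nautilus (nau) is the fly relative of the vertebrate MyoD family.

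The authors deposited, on build dm6, a list of 30000 regions for each replicate, 30000 regions from the pooled replicates, and 7184 peaks kept by their reproducibility step, here called optimal peaks. Every region carried 1 signal value, whose scale the deposit does not explain, and rank 1 was the highest signal of a list. Because these lists contain no read counts, depth is unknown. By the deposited description, the authors called the peaks of each replicate against a control, which was not analysed here. Whether regions that the antibody enriches by itself remain among those described was not examined. A position below is the summit, the point of highest signal in a region.

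The 10 windows held 21 of the 7184 optimal summits, and 8 of the 10 genes had at least 1 in their window, beside 52.4% of all protein-coding genes. Some of these summits lay in the same region or in overlapping regions, and merging such regions left 16 separate stretches. Counts and densities below are of summits, so neighbouring summits of 1 stretch are counted separately. The regulator windows were longer, with a median of 15252.5 bp against 12166 bp for all protein-coding genes. Per 10 kb of window the regulator genes had a median of 1.29 optimal summits and all protein-coding genes 0.39. Summed over all windows the density was 1.12 per 10 kb for the regulator genes and 0.70 for all genes. In these sums, summits and bases shared between windows were counted in each window. The medians depended on the flank, with 0.78 for the regulator genes and 0.47 for all genes at 10 kb on either side, and 0.21 and 0 in the gene spans alone. Mef2 held 8 of the 21 summits, nau 4, Doc2 3, Doc1, Doc3 and htl 2 each, and tin and lbl 1 each, with 2 of these summits shared by the Doc2 and Doc3 windows. The windows of bap and lbe held none. With 2 kb on either side in place of 5 kb, Doc3 held 0 and nau 1. Among the highest 7184 regions of replicate 1 alone, Doc3 held 1. Any pooled region, however weak, was found in 9 of the 10 windows, all but that of lbe, beside 71.9% of all protein-coding genes.

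**Figure D1:**
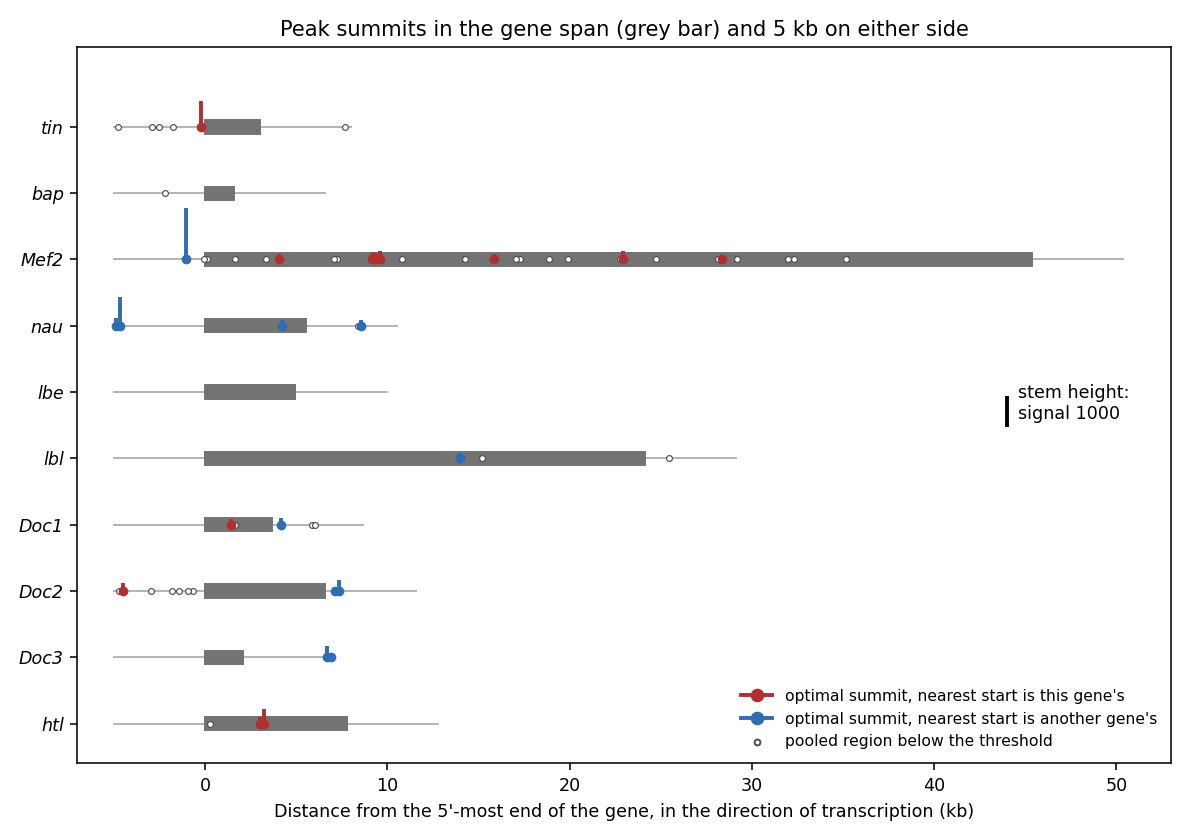
Optimal summits in the window of each regulator gene, by distance in kb from the gene's 5′ end in the direction of transcription (horizontal axis), with the gene span as a grey bar, the window as a thin line and the signal as the height of a stem. Red summits have the gene's own start as the nearest and blue ones another gene's, and open circles are pooled regions below the optimal list; Mef2 holds 8 summits, while bap and lbe hold none.

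The strength of these summits was that of an ordinary optimal peak. Their median signal was 244 in the regulator windows and 244 over all optimal peaks, and their median rank was 3592 against 3592.5. Of the 21, 11 (52.4%) ranked above the middle of the list, and 3 (14.3%) ranked among the highest 718 peaks, which are 9.99% of the list. Those 3 lay in the windows of Mef2, nau and tin. Matching summits within 100 bp were found in both replicates for 18 of the 21 (85.7%), beside 94.3% of all optimal summits. The count depended on the limit, with 15 of the 21 matched within 50 bp and 20 within 250 bp. Shares of all optimal summits are not given for those 2 limits. The 3 without a match within 100 bp lacked it in replicate 1, at 2 places in an intron of Mef2 and 1 place between Doc3 and Doc2. Over the 18 matched summits the signal of replicate 1 was 0.57 to 2.93 times that of replicate 2, with a median ratio of 1.13, against 1.08 over all matched optimal summits. The highest ratio was at 9012112, in the same region as the unmatched summit between Doc3 and Doc2. There the 2 replicate summits compared lay 100 bp apart.

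**Figure D2:**
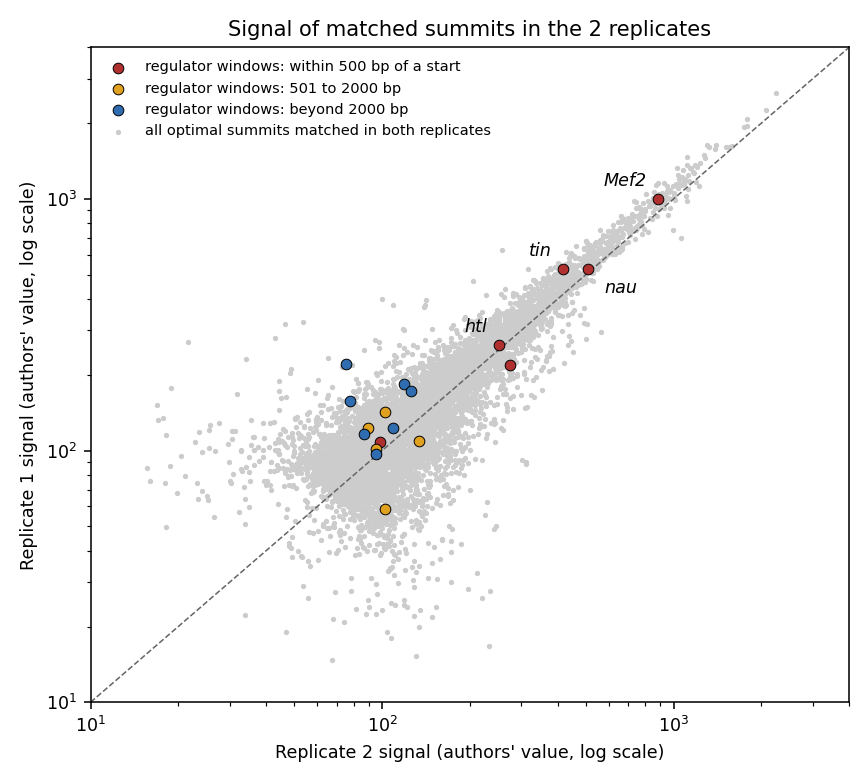
Signal of matched summits in replicate 1 (vertical) and replicate 2 (horizontal), both on log scales in the authors' units, with the regulator summits coloured by distance to the nearest start site over all matched optimal summits in grey and labels naming the window. The 4 highest regulator summits lie near the line of equal signal, and the low ones are spread more widely around it.

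Summits at promoters, meaning within 500 bp of any start site, numbered 6 of 21 (28.6%) in the regulator windows, beside 40.6% of all optimal summits. Distal summits, over 2000 bp from any start, were 10 of 21 (47.6%), beside 35.9%. The remaining 5 lay between these limits. The median signal of promoter summits was 729 in the regulator windows and 272 over all optimal peaks, and that of distal summits 242 and 223. Introns held 10 of the 21 summits (47.6%, against 39.9% of all optimal summits), a 5′ UTR held 1, intergenic sequence held 4, and the other 6 were the promoter summits. A start site of a regulator gene itself was the nearest for 12 summits, of which 2 were at promoters. For the other 9 the nearest start belonged to a neighbouring gene, and 4 of those were at promoters, among them the strongest of the set. Those 12 summits had signals of 165 to 941 with a median of 240.3, and the 9 nearest to other genes had 149 to 1875 with a median of 244. An optimal summit within 500 bp of the gene's own start was found at 2 of the 10 regulator genes, tin and htl, beside 21.1% of all protein-coding genes. With pooled regions of any strength it was found at 3 of the 10, Mef2 being added, beside 42.1%.

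**Figure D3:**
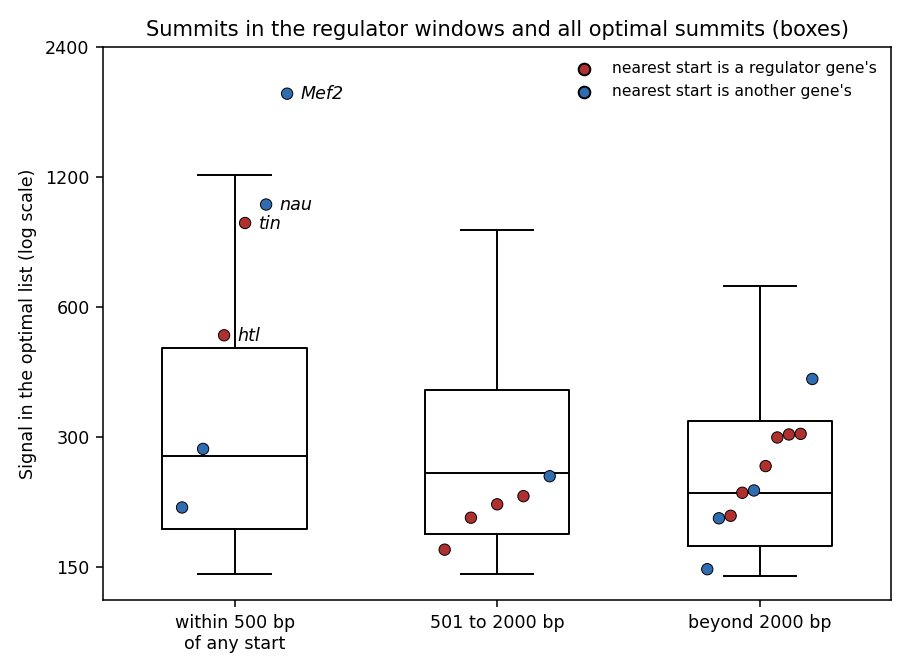
Signal of the 21 summits in the regulator windows (points, log axis) by distance to the nearest start site of any gene, over boxes for all optimal summits (line, median; box, quartiles; whiskers, 5th to 95th percentile). Red points have a regulator gene's start as the nearest and blue points another gene's, and the 2 highest points, in the Mef2 and nau windows, are blue.

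The promoter summit of tin was the strongest that lay nearest to a regulator gene's own start. tin (FBgn0004110) lies on the plus strand of chromosome arm 3R, at 21378977 to 21381970 on build dm6, with 1 annotated start. Its summit at 21378772, in the region 21378509 to 21379005, was 205 bp upstream of that start. The signal was 941, rank 386 of the optimal list. It was 524 in replicate 1 (rank 353) and 418 in replicate 2 (rank 449), so both replicates placed it high among their 30000 regions. The other 5 pooled regions in the tin window did not reach the optimal list. The sequence from 70 bases before the summit to the start of tin is printed below because it holds the only optimal summit within 500 bp of a start of tin, bap, lbl or lbe (chr3R:21378702-21378977, plus strand, from the RefSeq Release 6 genome, dm6). The summit is base 71, and capitals mark matches on either strand to the motifs searched, here CATATG and CACACA.
tin upstream: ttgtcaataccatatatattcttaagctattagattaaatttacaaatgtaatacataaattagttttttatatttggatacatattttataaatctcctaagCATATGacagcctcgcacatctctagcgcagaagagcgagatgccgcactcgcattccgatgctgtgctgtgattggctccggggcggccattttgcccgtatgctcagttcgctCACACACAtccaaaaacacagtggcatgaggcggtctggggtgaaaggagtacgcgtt

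Within 60 bp of the tin summit the GC content was 25.6%, beside a median of 33.1% over the 21 regulator summits, 31.4% over all optimal summits and 42.2% over the chromosome arms. bap, which acts in the visceral mesoderm that forms gut muscle, lies on 3R at 21388880 to 21390449 (plus strand). It had no optimal summit, and its 1 pooled region peaked at 21386673 with a signal of 37.3, rank 21917 of 30000, 2207 bp upstream of its start. lbe, at 21441577 to 21446537 (minus strand), had no pooled region. The only region in its window was 1 of replicate 2 with a signal of 16.6 at rank 28672. lbl, at 21409979 to 21434133 (minus strand), had 1 optimal summit at 21420145, in its intron, 13988 bp downstream of its start and 11022 bp from the nearest start, that of CheB93b. That summit had a signal of 195 (rank 4813), with 96.7 in replicate 1 and 95.0 in replicate 2. The sequence within 60 bases of it, at chr3R:21420085-21420205 on the minus strand, is printed as the single optimal summit of the ladybird pair. It had the lowest GC content of the 21, 23.1%, and its capitals mark GAGAG.
lbl intron: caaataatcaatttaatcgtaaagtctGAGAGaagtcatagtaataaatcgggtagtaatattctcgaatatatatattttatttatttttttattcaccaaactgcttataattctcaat

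Along the stretch of 178 kb from tin to slou, which holds 12 protein-coding genes, the NK genes among them, there were 5 optimal summits, or 2.81 per 100 kb, beside 5.20 per 100 kb over 3R. Pooled regions numbered 16, or 8.98 per 100 kb, beside 21.0 over 3R. The tin summit lies just upstream of this stretch and is not counted in it. Between the starts of tin and lbe the lbl intron held the only optimal summit. The others lay beyond lbe, 2 of them at Fancm, 1 in intergenic sequence and 1, with a signal of 652, at 579 bp upstream of sp3. The windows of the NK genes C15 and slou held no optimal summit.

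The Dorsocross genes lay in a stretch with many regions, and none of the 3 had an optimal summit at its own start. The 39.8 kb from Doc3 to Doc1 on 3L held 6 optimal summits, or 15.1 per 100 kb, beside 5.69 over 3L. Pooled regions were likewise frequent, at 57.7 per 100 kb against 23.3 over 3L. The highest summit in the 3 windows was at 9011906, with a signal of 409.5 (rank 1674). It lies 780 bp past the 3′ end of Doc2 (9012686 to 9019246, minus strand) and 4657 bp past that of Doc3 (9005196 to 9007249, plus strand). The nearest start, 2068 bp away, was that of CG5194. Replicate 2 placed a summit there with a signal of 185, whereas replicate 1 had its summit at 9012015. That position of replicate 1, with a signal of 219.8, was within 100 bp of the second optimal summit of the same region, at 9012112 (signal 149; 75.0 in replicate 2). The replicates therefore differed in where within 1 region the point of highest signal lay.

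Upstream of Doc2, 4514 bp from its start, a summit at 9023760 had a signal of 299.8, with 172 in replicate 1 and 125 in replicate 2. It was the only regulator summit with the T-box motif AGGTGT within 100 bp, a motif in 5.26% of all optimal windows of that size. Farther out, at 6650 bp upstream of Doc2 and beyond the 5 kb limit of its window, a summit at 9025896 reached 433 (247 in replicate 1 and 188 in replicate 2), the highest of the stretch. Doc1 (9041375 to 9045042, plus strand) had a summit in its intron at 9042809, 980 bp downstream of its internal start, with a signal of 209.9 (123 in replicate 1 and 89.5 in replicate 2). Another at 9045531 lay 489 bp past its 3′ end, with a signal of 244 (142 in replicate 1 and 102 in replicate 2). The nearest start to that one was that of Argk2, an arginine kinase gene, 1908 bp away. The sequences within 60 bases of 3 of these summits are printed because they carry the highest signal of the Doc2 and Doc3 windows, the T-box match and the highest signal of the Doc1 window. They are given on the strand of the gene named, at chr3L:9011846-9011966 (minus), chr3L:9023700-9023820 (minus) and chr3L:9045471-9045591 (plus), with AGGTGT and GATAA in capitals on either strand in the second and no motif searched in the others.
between Doc3 and Doc2: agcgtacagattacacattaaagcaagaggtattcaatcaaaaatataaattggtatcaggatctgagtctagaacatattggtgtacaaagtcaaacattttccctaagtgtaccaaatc
Doc2 upstream: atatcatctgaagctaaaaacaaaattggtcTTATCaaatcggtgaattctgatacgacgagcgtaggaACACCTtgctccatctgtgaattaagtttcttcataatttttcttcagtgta
Doc1 3′ side: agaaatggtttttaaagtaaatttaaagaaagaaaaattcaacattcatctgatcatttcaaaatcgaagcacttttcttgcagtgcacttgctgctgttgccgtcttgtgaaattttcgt

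**Figure D4:**
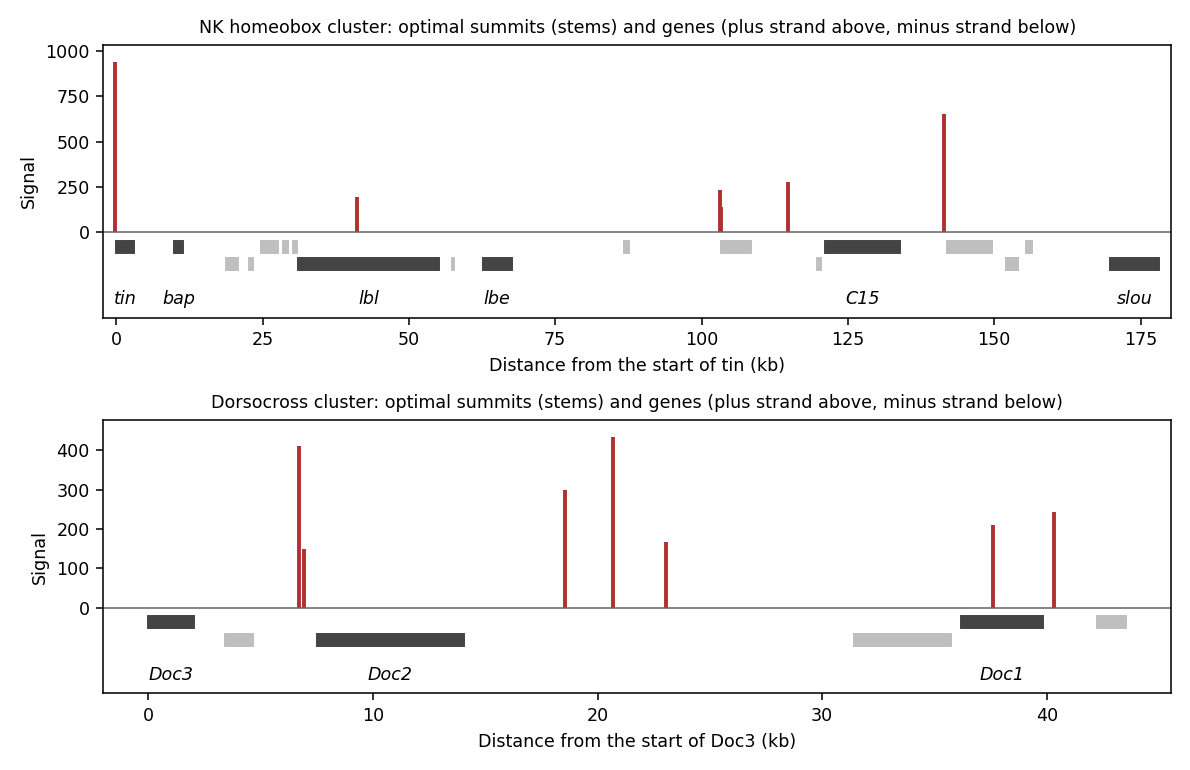
Optimal summits (stems, height the signal in the authors' units) and genes (bars, upper row plus strand and lower row minus strand, homeobox and Dorsocross genes dark) by distance in kb from the start of tin (upper panel) and of Doc3 (lower panel). The tin stem stands alone over the first 40 kb, whereas the Dorsocross stretch has 7 stems, 1 of them past the end of Doc1.

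htl, at 18045216 to 18052984 on the minus strand of 3R, had an optimal summit within 500 bp of its internal start. It had none within 500 bp of its 5′-most start. The summit at 18049761 was 395 bp upstream of the internal start at 18049366, inside the gene and 3223 bp from its 5′-most start. Its signal was 517 (rank 1139), with 262 in replicate 1 and 251 in replicate 2. A weaker summit 612 bp upstream of the same start had a signal of 219, with 109 in replicate 1 and 134 in replicate 2. At the 5′-most start, 18052984, the nearest pooled region had a signal of 25.1, rank 27993. The sequence around the stronger summit, chr3R:18049701-18049821 on the minus strand, is printed as the other promoter summit of a regulator gene's own. No motif searched was in it, and its GC content was 26.4%.
htl internal start: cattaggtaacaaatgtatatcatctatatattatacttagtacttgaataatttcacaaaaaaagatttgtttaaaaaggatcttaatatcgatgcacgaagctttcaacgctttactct

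nau, at 23712814 to 23718357 on the minus strand of 3R, had 4 optimal summits in its window, a number reached or passed by 7.97% of protein-coding genes, and 3 of them lay at promoters of neighbours. The highest, at 23723035, had a signal of 1038 (rank 322), with 525 in replicate 1 and 510.1 in replicate 2. It lay 296 bp upstream of a start of CG10365, 4678 bp upstream of nau and 322 bp inside the edge of the window. A second in the same region, 64 bp upstream of CG10365, had a signal of 282 and was 90 bp inside the edge. Another, 375 bp upstream of CG10301, had a signal of 206. The summit in the intron of nau, at 23714121 and 4236 bp downstream of its start, had a signal of 226, with 123 in replicate 1 and 109 in replicate 2. It was the only summit within the gene, and the nearest start, 2594 bp away, was that of CG10300. The sequences of the highest and of the intronic summit are printed on the strand of nau, at chr3R:23722975-23723095 and chr3R:23714061-23714181, to set the neighbour's promoter beside the gene's own intron. Capitals mark CATATG, an E-box bound by Twist, in the one, and the other held no motif searched.
CG10365 promoter in the nau window: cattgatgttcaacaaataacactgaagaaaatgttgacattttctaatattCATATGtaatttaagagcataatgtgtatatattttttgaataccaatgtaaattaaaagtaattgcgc
nau intron: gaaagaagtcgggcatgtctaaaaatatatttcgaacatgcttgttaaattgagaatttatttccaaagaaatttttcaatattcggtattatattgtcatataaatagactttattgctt

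Mef2 held the most summits and the highest one. The gene lies at 9913496 to 9958858 on the minus strand of 2R and has 3 annotated starts. Only 0.968% of protein-coding genes had 8 or more optimal summits in their window, but its window of 55363 bp was also long. Per 10 kb it had 1.45, a density reached or passed by 21.6% of protein-coding genes. The highest summit, at 9959925, had a signal of 1875 (rank 73), with 995 in replicate 1 (rank 73) and 886 in replicate 2 (rank 75). It lay 1067 bp upstream of the 5′-most start of Mef2 and only 153 bp upstream of a start of Pal1, a peptidyl-α-hydroxyglycine-α-amidating lyase gene. A start of Pdrg1 was 193 bp away. These neighbouring starts and that of Mef2 cannot be told apart as the site to which the peak belongs by position alone.

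The other 7 summits of Mef2 lay inside the gene, 6 in introns and 1 in its 5′ UTR, with signals of 165 to 306. A group of 3 stood close together, at 9949255, 9949520 and 9949724, between 4491 and 4960 bp upstream of the middle start. Their signals in the optimal list were 306, 257 and 223. Replicate 2 had summits with signals of 199.7, 139 and 77.7 at these places, whereas replicate 1 had a match within 100 bp only for the last, with 158. That summit of replicate 1, at 9949686, lay inside the region that holds both 9949520 and 9949724. The summit at 9935907, 6292 bp upstream of the 3′-most start, had 305 in the optimal list, 184 in replicate 1 and 119 in replicate 2. That at 9930518, 903 bp upstream of the same start, was the weakest of the gene at 165, with 58.8 in replicate 1 and 103 in replicate 2.

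Each of the 3 starts of Mef2 had a pooled region within 500 bp that did not reach the optimal list. Their signals were 124 at the 5′-most start (rank 7925, 125 bp downstream), 70.3 at the middle start (rank 13666) and 52.7 at the 3′-most start (rank 17181). The lowest signal in the optimal list was 137. At the 5′-most start the replicates differed, with 15.6 in replicate 1 (rank 27207) and 97.4 in replicate 2 (rank 4962). Over all 10 windows, 37 pooled regions stayed below the optimal list, beside the 21 summits within it.

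**Figure D5:**
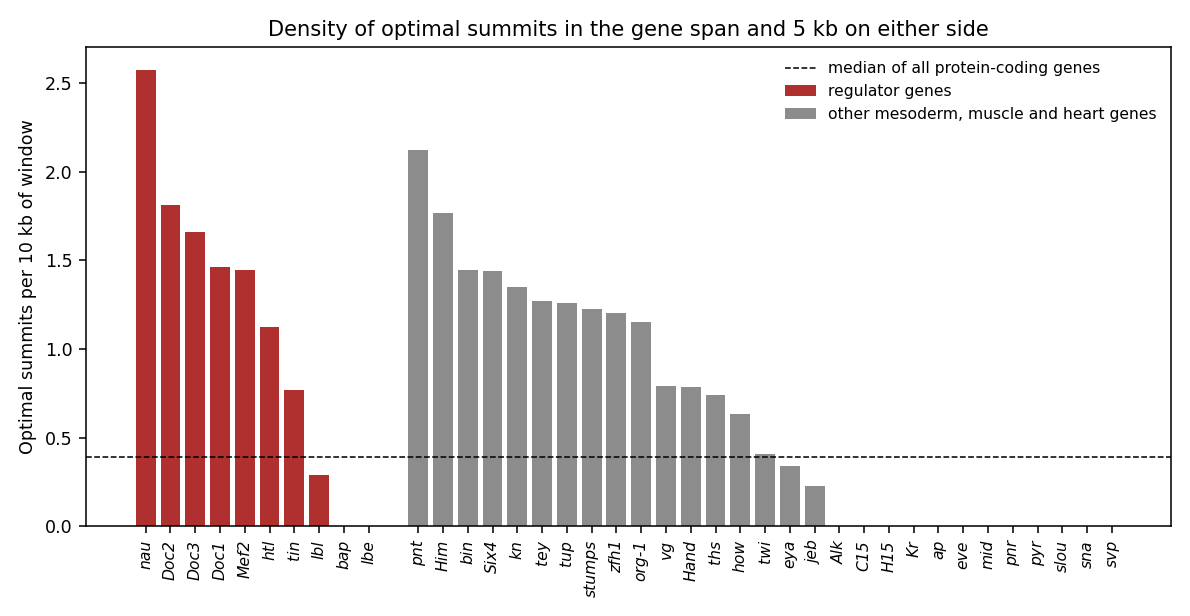
Optimal summits per 10 kb of gene window (vertical axis, 1 bar per gene) for the 10 regulator genes in red and 29 other mesoderm, muscle and heart genes in grey, with the median of all protein-coding genes, 0.39, as a dashed line. Of the regulator genes 7 stand above the line and lbl, bap and lbe below it, and nau is highest at 2.57 with this flank, whereas with 2 kb on either side it has 1.05 and Doc1 is highest at 2.61.

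A list of 29 other genes of mesoderm, muscle and heart was set beside these. Of the 29, 17 (58.6%) held an optimal summit in their window, and 4 (13.8%) had one within 500 bp of an own start, namely stumps, pnt, how and org-1. The median density was 0.41 per 10 kb in windows with a median length of 24719 bp. The highest summit of the list was at bin, a forkhead factor of the visceral mesoderm, with a signal of 1327 at rank 175 and 1315 bp upstream of the gene. stumps, the adaptor that works beneath the fibroblast growth factor receptors, had 890.4 at 330 bp upstream of a start. The zinc finger homeodomain factor zfh1 had 813, the T-box factor org-1 had 667, the LIM homeodomain factor tup had 619 and pnt, an ETS factor at the end of receptor tyrosine kinase signalling, had 549. The tup summit lay 114 bp upstream of CG10602. That of pnt lay in an intron, 10369 bp downstream of the nearest start of pnt and 1995 bp from the start of a non-coding RNA gene. pnt held 14 summits, the most of the list. Among the 12 genes with none were the mesoderm factor sna, the GATA factor pnr, eve and the T-box genes H15 and mid.

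A set of 13 motifs, some for the factors these genes encode and the others for other factors or a repeat, was counted on both strands within 100 bp of the 21 summits. The T-box motif AGGTGT, as above, was at 1. The Tinman motif TCAAGTG was at 0 of the 21 (3.51% of all optimal summits), and so was the Mef2 site (5.57%). CATATG, a Twist E-box, was at 3 of the 21 (14.3%, against 7.28%), in the tin, nau and Mef2 windows. The forkhead motif TGTTTAC was also at 3 (14.3%, against 6.51%), all in the Mef2 window. GATAA was at 8 (38.1%, against 41.8%), GAGAG at 6 (28.6%, against 20.7%), CACACA at 4 (19.0%, against 14.7%) and TAATTA at 3 (14.3%, against 19.2%). CATGTG (7.70% of all optimal summits) and CACGTG (1.78%) were at 1 each, and CAGGTAG (0.738%) and TATCGATA (2.02%) at 0. Several summits belong to 1 gene, and these counts are descriptions.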

How the data were processed

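The deposited description files say that the authors called peaks with background for each replicate against a control and for both replicates pooled, then kept those that passed a reproducibility threshold, on dm6. Sources used here do not give the aligner, the peak caller or that threshold. The signal values deposited by the authors were used to rank and describe regions within a list, and as a ratio between the replicates. The authors also deposited −log10 q values, which were not used. Summit positions were taken from the offsets deposited by the authors.

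Gene models were those of Ensembl release 115 (BDGP 6.54, dm6 coordinates) and sequence from RefSeq Release 6. Each gene's window was its span and 5 kb on either side. A summit was at a promoter within 500 bp of any start and distal beyond 2000 bp. Replicate summits were matched within 100 bp, motifs counted on both strands. The assignment was checked on artificial positions with known answers. The genes and lists were chosen with earlier results of these data known, so no p-value is given over them, and they are set beside all protein-coding genes or all optimal peaks. By rule, the text names outside the 10 genes those nearest to or spanning their optimal summits, the 6 other genes with the highest summit, C15 and slou. Every other gene named was chosen after its values were seen: Fancm, sp3, Pdrg1, Etf-QO, CG10602, how, sna, pnr, eve, H15 and mid. Python 3.11.15, numpy 2.4.6 and pandas 2.3.3 were used.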

Additional observations from a re-analysis of the deposited data

How the results depend on the processing

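Of 72 alternative values, 49 stayed within 1.5 times the reported count or, for the median signal, within the spread of the replicates. That spread was 12.6, the standard deviation of only 2 replicate medians, which lie on the lower scale of the single lists. With the gene span alone, 5 genes held 12 summits, 1 at a promoter, with a median signal of 221, beside 14.8% of protein-coding genes and 11 of the other 29 genes. With 2 kb on either side, 3 promoter summits and a median signal of 226 resulted. The 3592 highest optimal peaks left 11 summits, 5 distal, with a median signal of 306 (393 over that list). All pooled regions gave 58 summits, 16 at promoters and 27 distal, with a median of 80.6 (62.9 over that list). A promoter limit of 200 bp gave 2 promoter summits and 0 genes with a bound own start, since tin lies at 205 bp and htl at 395 bp. A limit of 1000 bp gave 4 such genes. Counting only summits nearest to a regulator gene's start, an alternative chosen after seeing the data, left 12 summits in 5 genes. Shares over all genes or all peaks are not given for these limits, or for the promoter and distal counts above. These counts therefore show only how the values move with the settings. Counting each summit once per motif, the sum over the 13 motifs was 14 within 50 bp of a summit, against 30 within 100 bp. Shares of all optimal summits also fell in the smaller window, for GATAA from 41.8% to 24.3%. For single replicates, only the highest 7184 regions of each list were used. The median signal of the regulator summits was then 123 in replicate 1 and 106 in replicate 2. All regions of these cut lists had medians of 129 and 123, and the full lists of 30000 had 34.2 and 36.3. No paired analysis was possible because both replicates belong to 1 group. The unstated signal scale, the unknown depth and the 2 replicates limit what can be said of weak summits.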

Other observations

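A region of the Mef2 window ranked high in both replicates but was in neither the pooled nor the optimal list. Its summit lay at 9910863 on 2R, 30 bp upstream of a start of Etf-QO, an electron transfer flavoprotein oxidoreductase gene beyond the 3′ end of Mef2. The signal was 80.1 in replicate 1 (rank 6420) and 89.3 in replicate 2 (rank 5550). A weaker region of Mef2, at 9922921, was likewise in both replicate lists (53.4 and 44.1) and overlapped no pooled region. Of 5373 regions among the highest 7184 of both replicates, 39 (0.726%) overlapped no pooled region, and 1 of the 39 lay in a regulator window. The cause was not tested.

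In the bap window replicate 1 had 3 regions without a counterpart in replicate 2, at 21393597, 21393797 and 21394577 on 3R, downstream of the gene, with signals of 36.7, 15.8 and 14.9. In the lbl window, 4 regions of replicate 1 with signals of 14.7 to 22.5 had no counterpart in replicate 2 or in the pooled list.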
